A study of Trichoderma harzianum with 18 samples.

Results

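The genes described here are 31 annotated genes of *Trichoderma harzianum* whose transcripts were high on D-fructose in both strains studied, Δ*xyr1-2* and its parent, and low on cellulose and without a carbon source. They were chosen from the measured levels, out of 14290 annotated genes. A gene was taken when its median level over 3 libraries, plus 0.5, was 10 or more on D-fructose in each strain and at least 4 times that of every cellulose and carbon-free group. Levels are in FPKM, the reads on a gene scaled for the length of its exons and for all reads counted on genes in the library. The contrast of D-fructose with the other media chose the genes, so it is given below as values and was not tested.

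The data were 18 RNA-seq libraries, 3 from each of 6 groups, from mycelium of the reference strain CBS 226.95 (the wild type) and of Δ*xyr1-2*, a single-spore isolate in which a hygromycin resistance cassette replaced *xyr1*. XYR1 is the transcription factor that activates cellulase and xylanase genes in *Trichoderma* species. All cultures, those of the wild type included, were grown for 36 h in minimal medium with D-fructose and peptone, washed, and moved for 18 h to minimal medium with 25 mM D-fructose, with 1% cellulose or with no carbon source. The mutant groups stand for 1 deletion isolate, and each of the 3 replicate sets started from its own spore plate.

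D-fructose is taken up by sugar transporters of the plasma membrane and phosphorylated by hexokinase to fructose 6-phosphate, which enters glycolysis directly. The pentose phosphate pathway is linked to glycolysis through this same compound. It supplies NADPH and ribose 5-phosphate, the sugar of nucleotides, and ribose 5-phosphate isomerase interconverts ribose 5-phosphate and ribulose 5-phosphate. Mycelium on D-fructose had a soluble sugar that needs no extracellular enzymes, mycelium on cellulose depended on secreted cellulases, and mycelium without carbon was starving.

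Between 16208381 and 21263103 reads were counted on genes per library, and TMM scaling factors ranged from 0.613 to 1.29. The strain labels were checked with *xyr1* (M431DRAFT_1126), which had 1272 to 13130 reads in the wild-type libraries and 0 to 11 in those of the mutant. In 2 libraries the D-fructose genes stood apart from the rest of their group, and these are described before the groups are compared. In replicate 3 of the wild type on cellulose, 18 of the 28 genes with at least 1 FPKM on that medium were at 2 or more times the mean of replicates 1 and 2, against 16.2% of all annotated genes so expressed (both on FPKM + 0.5). Earlier results on these data had already placed this library closer to D-fructose than the other 2 of its group. Its shift is therefore not taken as particular to the 31 genes. In replicate 1 of Δ*xyr1-2* on D-fructose, whose TMM factor was the lowest, 22 of the 31 were at no more than 0.5 times the mean of replicates 2 and 3, against 17.6% of all annotated genes with at least 1 FPKM on D-fructose. Medians of 3 leave 1 library of a group free to differ, so the rule did not exclude such genes.

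The summed level of the 31 genes was 4983, 5496 and 4895 FPKM in the wild-type D-fructose libraries and 2773, 4853 and 5135 FPKM in those of the mutant. On cellulose it was 333, 359 and 1982 FPKM in the wild type and 397, 469 and 394 FPKM in the mutant. Without carbon it was 341, 399 and 441 FPKM in the wild type and 384, 463 and 399 FPKM in the mutant. The wild-type cellulose library with 1982 FPKM is replicate 3, and the mutant D-fructose library with 2773 FPKM is replicate 1. A few genes carry much of these sums. In replicate 1 of the wild type on D-fructose, M431DRAFT_480134 and M431DRAFT_511345 were at 1826 and 970 FPKM. In replicate 3 of the wild type on cellulose, M431DRAFT_512744 and M431DRAFT_532775 were at 410 and 492 FPKM. The median over the 31 genes was 3.27, 3.59 and 11.9 FPKM in the wild-type cellulose libraries. These are libraries of whole mycelium, in which more expressing cells and more RNA per cell cannot be told apart.

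**Figure D1:**
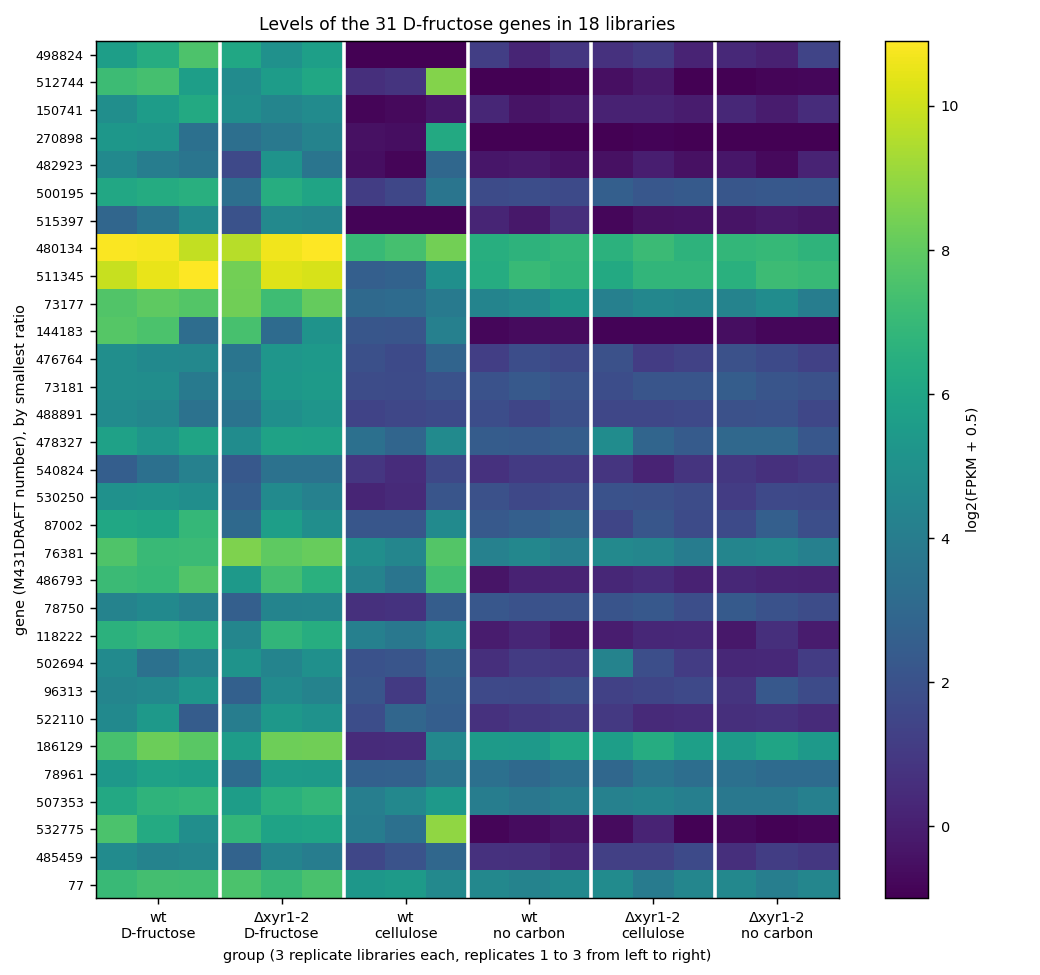
Level of each of the 31 D-fructose genes (rows, ordered by the smallest ratio of a D-fructose median to another group's median) in each of the 18 libraries (columns, 3 per group), as log2(FPKM + 0.5). The 6 D-fructose columns on the left are bright by construction, and the third wild-type cellulose column is brighter than the first and second for 28 of the 31 genes. The share of all annotated genes with that order was not counted.

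The smaller of the 2 D-fructose medians ranged from 10.1 to 1621 FPKM among the genes, with a median of 34.4 FPKM. The smallest ratio of a D-fructose median to another group's median ranged from 4.01 to 28.6, with a median of 5.26. In 14 genes all 6 D-fructose libraries lay above all 12 others, and in 26 they did so once replicate 3 of the wild type on cellulose was set aside. The rule chose on the medians of these libraries, so such separation is largely built in. Its share over all annotated genes was not counted. The 3 genes nearest the limit on its inner side were M431DRAFT_77 (ratio 4.01), M431DRAFT_485459 (4.03) and M431DRAFT_532775 (4.04). The 3 nearest on its outer side were M431DRAFT_89390 (3.97), M431DRAFT_83714 (3.93) and M431DRAFT_514438 (3.80), so the limit falls within a gradual series. M431DRAFT_83714 had medians of 287 and 261 FPKM on D-fructose in the wild type and the mutant and 66.1 FPKM in the wild type on cellulose.

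The gene with the highest ratio, M431DRAFT_498824, is annotated by the study as the *rpiB* ortholog, a ribose 5-phosphate isomerase of the pentose phosphate pathway. It was at 51.3, 82.4 and 190 FPKM in the wild type on D-fructose and at 66.9, 31.9 and 51.7 FPKM in the mutant. On cellulose the wild type had 0 reads on it in all 3 libraries, while the mutant had 10, 14 and 6 reads. Without carbon there were 17, 5 and 13 reads in the wild type and 6, 5 and 17 in the mutant. The wild-type cellulose libraries were thus below every other library, the starved ones included. Against a floor of 3 reads over the cellulose group, the gene was at least 857-fold higher on D-fructose in the wild type.

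In *Escherichia coli* the RpiA and RpiB enzymes catalyse the same reaction and are unrelated in sequence. Both the *rpiB* and the *rpiA* ortholog were annotated by the study from best matches in *Trichoderma reesei*, and neither activity was measured. M431DRAFT_95521 is the gene annotated as the *rpiA* ortholog. Its medians were 65.3 and 57.4 FPKM on D-fructose in the wild type and the mutant, 64.9 and 121 FPKM on cellulose, and 130 FPKM without carbon in both strains. The *rpiA* ortholog was therefore not higher on D-fructose than elsewhere, and in the wild type its D-fructose and cellulose medians lay side by side. It was not called between cellulose and no carbon in the wild type (log2 fold change -0.34, standard error 0.14, edgeR adjusted p = 0.0779).

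**Figure D2:**
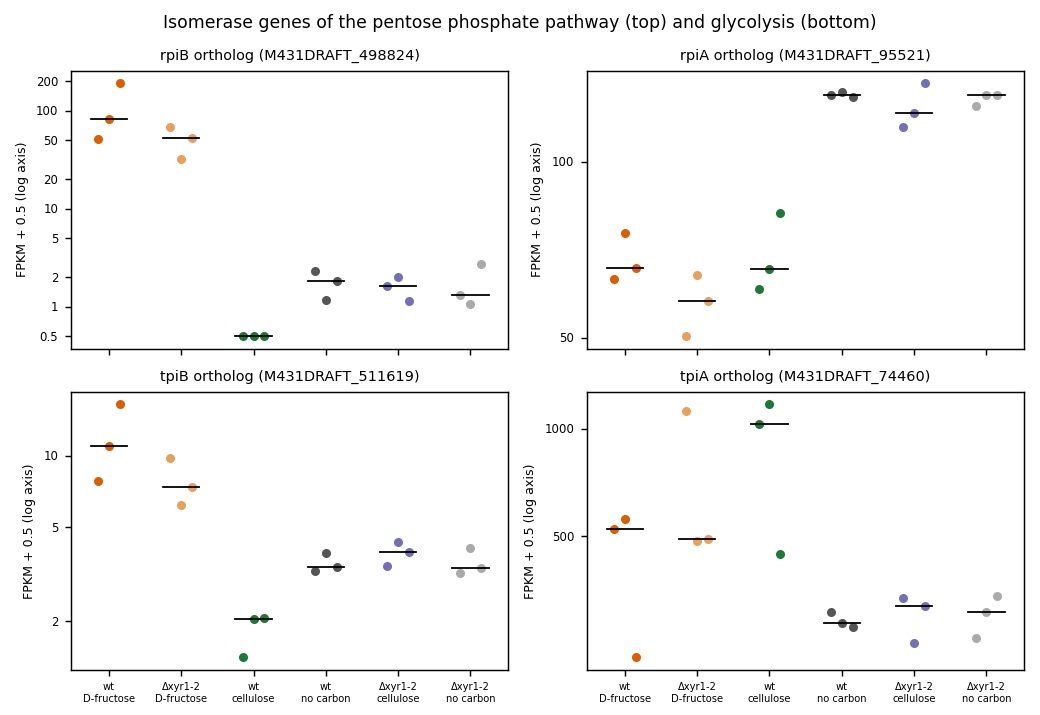
Level in FPKM + 0.5 (log axis) of the *rpiB* and *rpiA* orthologs of the pentose phosphate pathway and the *tpiB* and *tpiA* orthologs of glycolysis in each library of the 6 groups. Points are libraries (replicates 1 to 3 from left to right) and bars are group medians. The median of the *rpiB* ortholog is 82.4 and 51.7 FPKM on D-fructose and 0 in the wild type on cellulose, while the medians of the *rpiA* ortholog lie between 57.4 and 130 FPKM.

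The *rpiB* ortholog lies next to another of the 31 genes. On the Triha v1.0 assembly, 686 bases separate it from M431DRAFT_150741, which had the third highest ratio. M431DRAFT_150741 was at 29.2, 47.6 and 75.3 FPKM in the wild type on D-fructose and at 28.6, 21.03 and 26.7 FPKM in the mutant, and no library of the other groups exceeded 0.931 FPKM. The order of the 3 wild-type D-fructose libraries was the same in both genes, with replicate 3 the highest. The gene on the other side of the *rpiB* ortholog, M431DRAFT_511619, is the *tpiB* ortholog, a triose phosphate isomerase of glycolysis. Its medians of 10.5 and 6.92 FPKM on D-fructose and 1.55 to 3.42 FPKM elsewhere gave a ratio of 1.89, the highest of the 30 glycolysis genes, below the limit of 4. The main triose phosphate isomerase gene, the *tpiA* ortholog (M431DRAFT_74460), had medians of 525 and 492 FPKM on D-fructose and of 1030 FPKM in the wild type on cellulose.

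Such pairs of directly neighbouring genes numbered 4 among the 31, with 8 genes in them, and no run of 3 was found. In the second pair, M431DRAFT_270898 and M431DRAFT_512744 lie 1769 bases apart. M431DRAFT_512744 was at 144, 169 and 50.9 FPKM in the wild type on D-fructose and at 26.6, 47.1 and 68.6 FPKM in the mutant, and M431DRAFT_270898 followed at 38.7, 36.7 and 10.1 FPKM and at 9.62, 13.5 and 19.3 FPKM. On cellulose the wild type had 1.04, 1.25 and 410 FPKM of the first and 0.214, 0.169 and 75.4 FPKM of the second. Replicate 3 thus exceeded all 6 D-fructose libraries in both genes, and replicates 1 and 2 were near 0. In the 9 libraries of the mutant on cellulose and of both strains without carbon, M431DRAFT_512744 did not exceed 0.384 FPKM and M431DRAFT_270898 did not exceed 0.0368 FPKM. Against a floor of 3 reads over a group at 0, M431DRAFT_270898 was at least 750-fold higher in the wild type on D-fructose than in the wild type without carbon and at least 338-fold higher in the mutant on D-fructose than in the mutant without carbon. M431DRAFT_270898 overlaps the gene M431DRAFT_125892, and no strand was stated for the counting. Without carbon, M431DRAFT_125892 was at 2.13 to 4.50 FPKM while M431DRAFT_270898 had 0 reads in all 6 libraries. Reads of M431DRAFT_125892 were thus not counted on M431DRAFT_270898 there. Whether reads of M431DRAFT_270898 were counted on M431DRAFT_125892 was not tested.

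The gene beyond M431DRAFT_512744, M431DRAFT_153239, had the same shape at a lower level. It was at 18.4, 14.7 and 5.88 FPKM in the wild type on D-fructose, at 5.14, 5.25 and 9.73 FPKM in the mutant, and at 0.553, 0.522 and 48.5 FPKM in the wild type on cellulose, again with replicate 3 the highest. With a ratio of 5.46 it missed the set only on the level in the mutant.

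The third pair, M431DRAFT_73181 and M431DRAFT_488891, is the closest, at 77 bases. M431DRAFT_73181 was at 29.2, 27.7 and 14.5 FPKM in the wild type on D-fructose, at 14.4, 38.4 and 43.9 FPKM in the mutant, and between 2.80 and 5.28 FPKM in the 12 other libraries. M431DRAFT_488891 was at 26.3, 22.7 and 10.7 FPKM and at 11.1, 29.7 and 36.7 FPKM on D-fructose and between 2.16 and 3.54 FPKM in the others. Both genes had their lowest D-fructose values in the third wild-type library and the first mutant library, and in replicate 3 of the wild type on cellulose they were at 3.46 and 2.74 FPKM, close to replicates 1 and 2 at 2.95 and 2.80 FPKM and at 2.16 and 2.42 FPKM. In the fourth pair, M431DRAFT_186129 and M431DRAFT_502694, 3366 bases apart, the profiles differed on cellulose: in the wild type M431DRAFT_186129 was at 0.897, 0.939 and 23.0 FPKM, below its level without carbon, and M431DRAFT_502694 was at 3.48, 3.84 and 7.38 FPKM, above it.

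**Figure D3:**
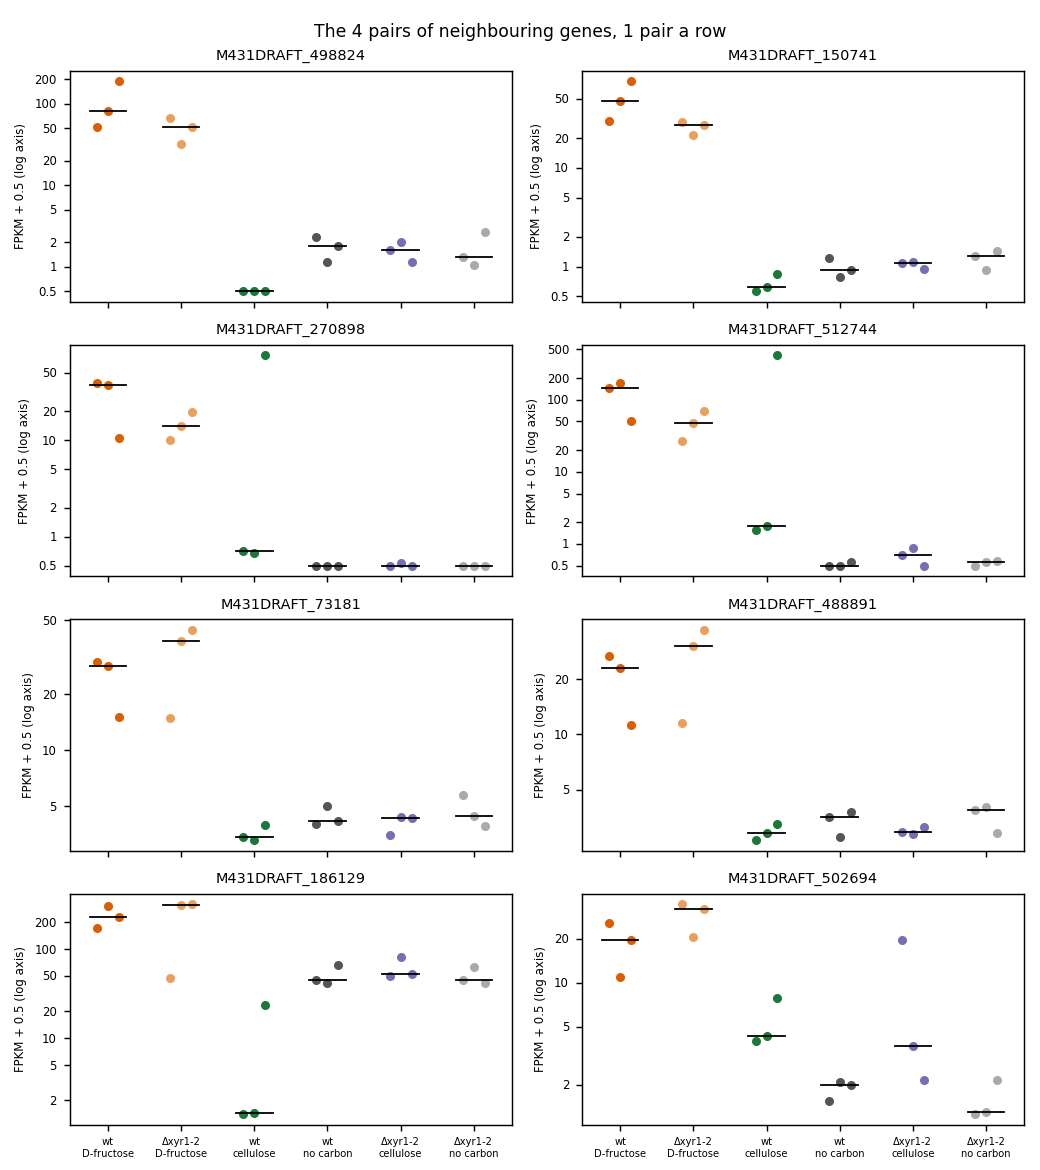
Level in FPKM + 0.5 (log axis) of the 8 genes that form the 4 neighbouring pairs, 1 pair a row, in each library of the 6 groups. Points are libraries (replicates 1 to 3 from left to right) and bars are group medians. In the second row the third wild-type cellulose library of both genes lies above all D-fructose libraries, at 75.4 and 410 FPKM, and in the first row the same library stays near 0.

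The most abundant transcripts on D-fructose were those of M431DRAFT_480134 and M431DRAFT_511345. M431DRAFT_480134 was at 1826, 1727 and 904 FPKM in the wild type on D-fructose and at 802, 1621 and 1871 FPKM in the mutant. It was at 130, 168 and 328 FPKM in the wild type on cellulose and at 87.9 to 137 FPKM in the other low groups. M431DRAFT_511345 was at 970, 1479 and 1917 FPKM and at 333, 1275 and 1154 FPKM on D-fructose. On cellulose the wild type had only 5.65, 6.19 and 29.6 FPKM of it, while all libraries of the other low groups had 74.4 to 142 FPKM. The 2 genes therefore shared the high D-fructose level and differed in where the wild type on cellulose stood relative to starvation.

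Next in abundance were M431DRAFT_186129, M431DRAFT_73177, M431DRAFT_77 and M431DRAFT_76381, with smaller D-fructose medians of 228, 211, 158 and 140 FPKM. M431DRAFT_76381 is, with the *rpiB* ortholog, the other gene of the 31 that the annotation used here describes. It encodes a membrane protein of the RTA1-like family (PF04479), named after a yeast gene linked to resistance to toxic compounds. It was at 196, 135 and 140 FPKM in the wild type on D-fructose, at 382, 246 and 278 FPKM in the mutant, and at 15.4 to 28.8 FPKM in 11 of the other libraries. The exception was replicate 3 of the wild type on cellulose, with 212 FPKM, within the D-fructose range. M431DRAFT_73177 was at 206, 247 and 211 FPKM and at 318, 149 and 276 FPKM on D-fructose and did not exceed 39.0 FPKM elsewhere, with its lowest values, 7.86, 8.48 and 14.3 FPKM, in the wild type on cellulose.

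The rule required a high D-fructose level in both strains but not an equal one, so the strains were compared on D-fructose with edgeR's quasi-likelihood test over all genes. A gene was called when its Benjamini-Hochberg adjusted p was under 0.05, its fold change over 2 and its mean FPKM over 1 in a group. None of the 31 genes was called, nor was any with DESeq2, and 0.00917% of all genes tested with edgeR were called. At an unadjusted p under 0.05 in edgeR there were 3 genes: M431DRAFT_76381 with a log2 fold change (mutant over wild type) of 1.25 ± 0.35 (standard error, adjusted p = 0.540), M431DRAFT_512744 with -1.11 ± 0.46 (adjusted p = 0.605) and M431DRAFT_87002 with -1.34 ± 0.55 (adjusted p = 0.605). M431DRAFT_76381 was at 135 to 196 FPKM in the wild type and 246 to 382 FPKM in the mutant. M431DRAFT_87002 was at 60.6 to 123 FPKM and 7.92 to 51.1 FPKM, and neither difference passed the adjustment. Over the 31 genes the log2 fold changes ranged from -1.34 to 1.25 with a median of -0.17. The standard errors ranged from 0.30 to 1.26 with a median of 0.45. Differences over 2-fold, which is 1 on this scale, did not pass the adjustment at errors of 0.35, 0.46 and 0.55. The absence of calls therefore does not show equal levels in the strains. Mutant replicate 1 was the lowest of the 6 D-fructose libraries in 21 of the genes, a count not made over all annotated genes. Without mutant replicate 1 there was again no call.

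Cellulose and starvation were compared within the wild type, a contrast that the rule caps but does not use. On this contrast 27 of the 31 genes had enough reads to be tested. With edgeR, 14 were higher on cellulose and 1 was lower, against 19.9% higher and 22.1% lower of all genes tested, and 12 were not called. Of the 14, 5 passed the read filter only through the cellulose libraries. With no filter, when all 31 were tested, 14 were higher and 2 lower against 16.3% and 18.3% of all genes, 23 of the 31 log2 fold changes were above 0, and their median was 1.41 beside -0.09 over all genes. DESeq2 called 12 higher and 2 lower. With library size as the only scaling, which moved the all-gene median by -0.588 on the log2 scale, edgeR called 10 higher and 2 lower. Of the 15 calls, 10 held in all 6 fits that left out 1 library.

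The same 27 genes were tested between the strains on cellulose. In the mutant 14 were lower and 1 was higher than in the wild type, against 20.7% lower and 21.5% higher of all genes tested. Of the 14, 2 (M431DRAFT_512744 and M431DRAFT_144183) passed the read filter only through the wild-type libraries, where they were high. With no filter the counts were 15 lower and 2 higher, against 16.9% and 18.2%, with a median log2 fold change of -1.21 beside 0.05 over all genes. DESeq2 called 12 lower and 2 higher. Of the 15 calls, 7 held in all 6 fits that left out 1 library, and without replicate 2 or 3 of the mutant on cellulose there were 7 and 8 calls in all. Both comparisons share the wild-type cellulose libraries, so their calls are 2 readings of the same samples. The comparisons of cellulose and no carbon that lack those libraries called none of the 31 genes with edgeR. In the mutant, cellulose against no carbon gave 0 calls among 24 tested (0.0782% of all genes, 1 gene at an unadjusted p under 0.05 in edgeR, 0 calls with DESeq2), and the strains without carbon gave 0 among 23 tested (0.132% of all genes, 1 gene at an unadjusted p under 0.05, 0 calls with DESeq2). The 1 gene in the mutant was M431DRAFT_502694, which was at 19.2, 3.17 and 1.67 FPKM on cellulose and at 0.758 to 1.68 FPKM without carbon, and the 1 between starved strains was M431DRAFT_500195, at 2.70 to 3.03 FPKM in the wild type and 4.03 to 4.33 FPKM in the mutant.

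**Figure D4:**
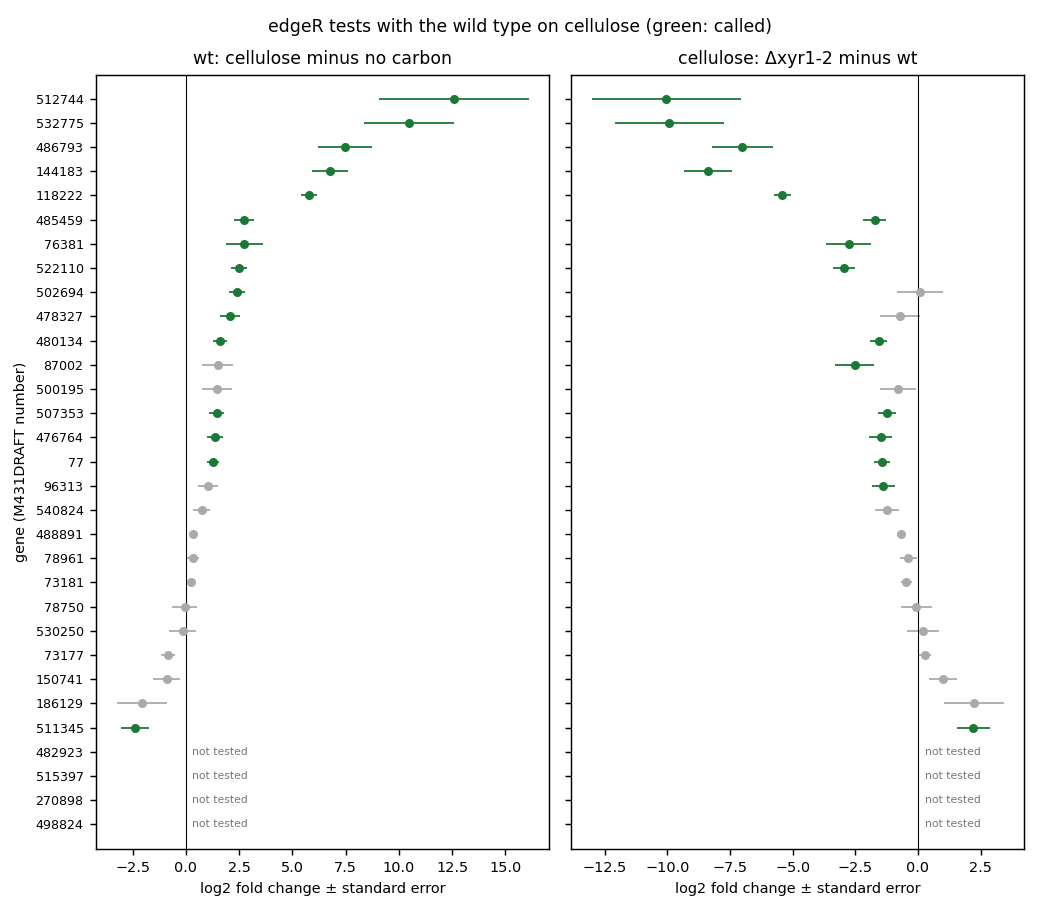
Log2 fold change ± standard error (derived from the edgeR F statistic) of the 31 genes for cellulose minus no carbon in the wild type (left) and for Δ*xyr1-2* minus wild type on cellulose (right), both of which include the wild-type cellulose libraries. Green points passed the calling criteria, grey points did not, and 4 genes passed the read filter in neither test. On the left 14 green points lie above 0 and 1 below, and on the right 1 above and 14 below.

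Of the 14 genes that were higher on cellulose than without carbon in the wild type, 5 had almost no transcript in the starved wild type or in the mutant on cellulose or without carbon. They are the 5 that passed the read filter only through the cellulose libraries, so the direction of their calls could hardly have differed. Their fold changes over no carbon are therefore given as values only. M431DRAFT_118222 was at 17.9, 13.3 and 22.9 FPKM in the wild type on cellulose, at 100, 119 and 93.2 FPKM in the wild type on D-fructose, at 21.4, 113 and 85.2 FPKM in the mutant on D-fructose, and at no more than 1.04 FPKM in the 9 remaining libraries. Its 3 cellulose libraries were close together, with a log2 fold change of 5.76 ± 0.38 over no carbon. On cellulose it was lower in the mutant by 5.41 ± 0.34 (edgeR adjusted p = 0.000144). M431DRAFT_144183 was at 4.04, 3.84 and 17.8 FPKM on cellulose in the wild type and at no more than 0.173 FPKM in the same 9 libraries, and its D-fructose libraries were uneven, with 219, 182 and 8.89 FPKM in the wild type and 172, 8.44 and 34.4 FPKM in the mutant. M431DRAFT_486793 was at 19.6, 12.01 and 159 FPKM on cellulose in the wild type and at no more than 0.922 FPKM in those libraries, against 125 to 203 FPKM and 41.4 to 161 FPKM on D-fructose. For these 3 genes, a level well above 0 in the wild type on cellulose stood beside a level near 0 in the mutant on cellulose.

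The other 2 of the 5 depended more on replicate 3. M431DRAFT_532775 was at 15.5, 10.1 and 492 FPKM in the wild type on cellulose, at 187, 78.2 and 29.3 FPKM and 118, 58.6 and 64.1 FPKM on D-fructose, and at no more than 0.655 FPKM in the 9 remaining libraries. Its fitted log2 fold change over no carbon was 10.49 ± 2.11, and 6.88 ± 0.38 without replicate 3. M431DRAFT_512744, described above, went from 12.57 ± 3.53 to 5.84 ± 0.77 without that replicate. Both were called without replicate 3 too, but the call of M431DRAFT_512744 was lost without any 1 of the 3 starved libraries. The starved wild type had 1 read in all on M431DRAFT_512744, against 14, 17 and 5506 on cellulose, so the size of its fitted change rests mainly on replicate 3 and has a wide error.

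The remaining 9 of the 14 were expressed under starvation too and rose by smaller steps, with log2 fold changes from 1.28 to 2.74. At the top of this group, M431DRAFT_485459 was at 2.42, 3.59 and 7.36 FPKM on cellulose and at 1.10, 1.08 and 0.766 FPKM without carbon (2.74 ± 0.46, edgeR adjusted p = 0.00328). M431DRAFT_77 stood at the lower end, with 39.0, 43.9 and 23.9 FPKM on cellulose against 23.1, 19.2 and 24.6 FPKM without carbon (1.28 ± 0.27, adjusted p = 0.00830), and was the only gene of the 14 for which replicate 3 on cellulose was the lowest of its group. Its FPKM overlapped while its counts scaled by TMM did not, since the factors of these libraries were 0.794 to 0.819 on cellulose and 1.20 to 1.21 without carbon, and with library size as the only scaling it was not called. M431DRAFT_480134 rose by 1.60 ± 0.33 (adjusted p = 0.00687). The RTA1-like gene M431DRAFT_76381, with 28.8, 21.6 and 212 FPKM against 16.7 to 22.6 FPKM, had a log2 fold change of 2.73 ± 0.87 (adjusted p = 0.0339). With the replicate set as a block it was 1.94 ± 0.77 and was no longer called (adjusted p = 0.0917), and without replicate 3 on cellulose it was 1.07 ± 0.18. It was not called without any 1 of the 3 starved libraries.

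M431DRAFT_511345 was the 1 gene called lower on cellulose than without carbon in the wild type (log2 fold change -2.40 ± 0.65, edgeR adjusted p = 0.0191). Between the strains on cellulose, it was the 1 gene called higher in the mutant than in the wild type (2.21 ± 0.65, edgeR adjusted p = 0.0274). Its 3 wild-type cellulose libraries, at 5.65, 6.19 and 29.6 FPKM, were all below the 9 libraries of the other low groups. Each of these calls was lost in 4 of the 6 fits that left out 1 library, the first without replicate 1 or 2 of the wild type on cellulose or replicate 2 or 3 without carbon, the second without the same cellulose replicates or replicate 2 or 3 of the mutant on cellulose. Without replicate 3 of the wild type on cellulose the change grew to -3.50 ± 0.23 (adjusted p = 3.32e-06).

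Without replicate 3 of the wild type on cellulose, 29 of the genes were tested between cellulose and no carbon in the wild type, and 13 were higher on cellulose and 6 lower, against 23.0% and 25.6% of all genes in that fit. The 6 were M431DRAFT_511345, M431DRAFT_186129 (-5.10 ± 0.30), the *rpiB* ortholog (-6.27 ± 1.61, with no reads on cellulose, so its size is set by the prior), M431DRAFT_530250 (-1.26 ± 0.33), M431DRAFT_73177 (-1.09 ± 0.28) and M431DRAFT_78750 (-1.08 ± 0.25). Between the strains on cellulose there were then, of 27 tested, 12 lower and 4 higher in the mutant, against 22.5% and 26.0% of all genes, the higher ones being M431DRAFT_186129 (5.34 ± 0.31), M431DRAFT_511345 (3.38 ± 0.22), M431DRAFT_530250 (1.39 ± 0.31) and M431DRAFT_78750 (1.02 ± 0.27). M431DRAFT_186129 was at 44.7, 41.0 and 65.3 FPKM in the starved wild type and at 49.8, 82.0 and 52.6 FPKM in the mutant on cellulose, so replicates 1 and 2 of the wild type on cellulose, at 0.897 and 0.939 FPKM, stood far below both. With the replicate set as a block it was called lower on cellulose in the wild type also with all libraries (-3.57 ± 0.98, adjusted p = 0.0332).

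**Figure D5:**
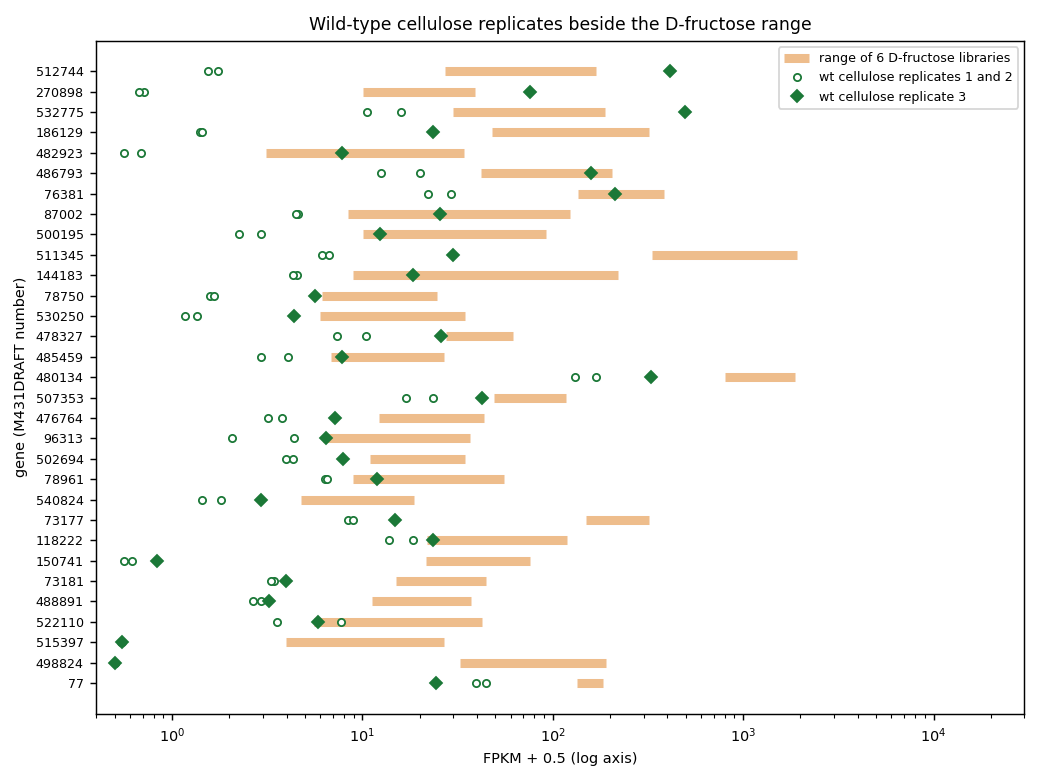
For each of the 31 genes, the 3 wild-type cellulose libraries (open circles, replicates 1 and 2; diamonds, replicate 3) beside the range of the 6 D-fructose libraries of both strains (orange bars), in FPKM + 0.5 on a log axis. Genes are ordered by the ratio of replicate 3 to the mean of replicates 1 and 2, and replicate 3 reaches the lowest D-fructose library in 14 genes and passes all 6 in 3. These counts were not made over all annotated genes.

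Replicate 3 of the wild type on cellulose reached the lowest D-fructose library in 14 of the 31 genes and exceeded all 6 in M431DRAFT_512744, M431DRAFT_270898 and M431DRAFT_532775. Replicate 1 or 2 reached the lowest D-fructose library in 1 gene. None of these counts was made over all annotated genes. The median ratio of replicate 3 to the mean of replicates 1 and 2, on FPKM + 0.5, was 2.20 over the D-fructose genes and 1.07 over all annotated genes expressed there. The ratio differed widely among the genes, from 250 in M431DRAFT_512744, 110 in M431DRAFT_270898, 37.0 in M431DRAFT_532775 and 16.6 in M431DRAFT_186129 to no rise in the *rpiB* ortholog, which had 0 reads in all 3 libraries. The same library had the most *xyr1* reads of all 18, 13130 against 3501 and 7053 in replicates 1 and 2. The part of this library in the results was not tested beyond the comparisons without it.

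Whether the response to cellulose differed between the strains was tested directly, as the difference between the wild type's and the mutant's log2 fold change of cellulose over no carbon. Of 28 genes tested, 10 had a higher response in the wild type and 2 a lower one, against 19.9% and 21.2% of all genes tested, and DESeq2 gave 11 and 2. The 10 include M431DRAFT_144183, M431DRAFT_486793 and M431DRAFT_118222, and the 2 were M431DRAFT_511345 and the *rpiB* ortholog. M431DRAFT_144183, M431DRAFT_486793 and M431DRAFT_118222 had no starved wild-type library past the read filter. Their calls therefore rest on the wild-type cellulose libraries, where they were high. With no filter the median log2 difference over the D-fructose genes was 1.30 beside -0.04 over all genes. In 10 of the 31 genes none of the 3 comparisons with the wild type on cellulose gave a call, and 3 genes (M431DRAFT_270898, M431DRAFT_482923 and M431DRAFT_515397) had enough reads in too few libraries of these groups to be tested in any of them. M431DRAFT_515397 was at 7.16, 11.8 and 26.3 FPKM and at 3.47, 23.5 and 21.6 FPKM on D-fructose and at 0.0425 to 0.0431 FPKM in the wild type on cellulose, replicate 3 included.

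Genes known to act in sugar uptake and breakdown were set beside the D-fructose genes, from the annotation of the study. None of the 90 genes with a sugar transporter domain (PF00083) was among the 31, and none reached a ratio of 2. The highest ratios there were 1.36 in M431DRAFT_523667, 1.22 in M431DRAFT_83935 and 1.20 in M431DRAFT_103038, whose D-fructose medians did not exceed 1.42 FPKM. None of the 30 glycolysis genes, the 21 genes of the tricarboxylic acid cycle and the 31 genes of other sugar pathways was among them either. The *rpiB* ortholog was the 1 of 11 pentose phosphate pathway genes that qualified and the only gene of all these lists with a ratio of 2 or more.

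In the wild type, 18 of 29 glycolysis genes tested were higher on cellulose than without carbon and 1 was lower, against 19.9% and 22.1% of all genes, and between the strains on cellulose 17 were lower in the mutant and 1 was higher, against 20.7% and 21.5% of all genes. The sugar transporters had 14 higher and 27 lower of 75 on the first of these and 13 lower and 28 higher of 79 on the second. In the pentose phosphate pathway, 2 of 9 genes were higher and 1 lower on the first, and 3 were lower and 1 higher on the second, counts too small to set apart from those shares. No gene of any list was called between the strains on D-fructose. The median of the smallest ratio was 0.39 over the sugar transporters, 0.59 over glycolysis and 0.71 over the pentose phosphate pathway, beside 0.58 over all annotated genes. The other 29 of the 31 genes beside the *rpiB* ortholog and the RTA1-like gene carry no description in the annotation used here.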

How the data were processed

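RNA from mycelium was sequenced after poly-A selection as paired-end reads. The authors cleaned the reads, mapped them with STAR 2.5.2b against the wild-type assembly, counted them on genes with HTSeq 0.5.4, and deposited whole-number counts without normalization. The FPKM that the authors deposited equal these counts divided by exon length and by the reads counted on genes, to within 6.16e-06. No strand was stated for the counting. Both tables hold 14650 genes, of which 469 had no reads in any library and 360 without an annotated name were not eligible. The rule also left out 2 genes, which are not described here, while the counts over the sugar transporters were made without that exclusion. No 2 libraries were identical.

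The genes and the lists around them were chosen with earlier results of these data known. Counts were tested over all genes with edgeR 4.0.16 (TMM, filterByExpr, quasi-likelihood F-test, R 4.3.3), on the groups of each comparison, with Benjamini-Hochberg adjustment; calls followed the study's criteria, except that the difference between strain responses had no FPKM criterion. DESeq2 1.42.0, other scalings, no filter, a replicate block and each library left out were alternatives. The scripts were tested on simulated data.

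Named genes were the 10 highest on D-fructose, the 8 with the highest ratio, 3 on each side of the limit, those with an annotation, the largest called changes, the 4 most raised in replicate 3 of the wild type on cellulose, *xyr1* and the highest ratios of the lists. The neighbouring pairs and other genes were named after their values were seen. Product names, protein lengths and promoter motifs were not analysed here. Per the labels, each replicate set of pre-cultures came from its own spore plate and was moved to all media, which pairs equal numbers within a strain. Deviations of equal numbers correlated at 0.132 to 0.198 between cellulose and no carbon in the mutant, at -0.0770 to 0.0532 in the wild type and at -0.0365 to 0.407 between the strains on D-fructose.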

Additional observations from a re-analysis of the deposited data

Results flagged for a closer look

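The response to cellulose over no carbon differed between the wild type and the mutant, by a test of the difference itself (edgeR, Benjamini-Hochberg adjusted), in 12 of the 28 D-fructose genes tested, 10 higher and 2 lower in the wild type, against 19.9% and 21.2% of all genes tested, so the number of calls by itself is near that over all genes. The log2 difference, wild type minus mutant, was 8.37 ± 1.56 (standard error) for M431DRAFT_144183, 7.38 ± 1.48 for M431DRAFT_486793 and 5.80 ± 0.60 for M431DRAFT_118222. These genes were near 0 in the mutant on cellulose and in both starved strains. They had no starved wild-type library past the read filter, and M431DRAFT_144183 no mutant cellulose library either, so their calls rest on the wild type on cellulose. The difference was 2.88 for the RTA1-like gene M431DRAFT_76381, 2.52 for M431DRAFT_522110 and 2.26 for M431DRAFT_485459. Smaller differences were found for M431DRAFT_480134 (1.78), M431DRAFT_476764 (1.65), M431DRAFT_77 (1.34) and M431DRAFT_507353 (1.24). Negative differences, a lower response in the wild type, were found for M431DRAFT_511345 (-1.99) and the *rpiB* ortholog M431DRAFT_498824 (-6.23, a size set by the test's prior since the wild type had 0 reads on cellulose). In the 12 fits that left out 1 library, 8 of these 12 genes kept their call in all, and the calls of M431DRAFT_511345, M431DRAFT_476764, M431DRAFT_507353 and M431DRAFT_76381 were lost in 9, 6, 4 and 4 of the fits. With the replicate set of each strain as a block, an alternative chosen after seeing the data, 13 genes were called. M431DRAFT_76381 (2.09, adjusted p = 0.0908) and M431DRAFT_498824 (-6.30, adjusted p = 0.0543) were then not called, and M431DRAFT_512744 (11.03), M431DRAFT_532775 (8.18) and M431DRAFT_186129 (-3.63) were.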

How the results depend on the processing

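The set held 31 genes as defined, 20 with group means in place of medians, 10 at a ratio of 8, 147 at a ratio of 2, and 2 when the lowest D-fructose library had to be 4 times the highest other library. FPKM rescaled by TMM factors gave 42 genes, 28 of them shared. Without single libraries the set ranged from 19 to 39 genes, with 20 and 19 without replicates 1 and 2 of the wild type on cellulose.

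Counts of calls were within 1.5 times of those reported except in the following. At an adjusted p under 0.01, 9 genes were called between cellulose and no carbon in the wild type (15 as reported), 6 between the strains on cellulose (15) and 6 for the difference in response (12). Between the strains on cellulose, 7 were called with library size as the only scaling, which moved the median of all genes by 0.68, and 9 with replicate number as a block; there the numbers mark no shared culture (correlations -0.186 to -0.0548). Without single libraries the counts were 11 to 19, 7 to 16 and 8 to 15; the 7 and an 8 between the strains came without replicates 2 and 3 of the mutant on cellulose. The 3 comparisons with 0 calls had 0 in every alternative, the block included. No called change of a single gene reversed; 543 of their values under alternatives kept the call and 112 lost it, among them those of M431DRAFT_96313, M431DRAFT_507353, M431DRAFT_87002 and M431DRAFT_76381 between the strains without any 1 mutant cellulose library. With 3 libraries a group, genes near 0 outside D-fructose gave wide errors.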
